A study of Caenorhabditis elegans with 2 samples.

Results

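The nlp genes of Caenorhabditis elegans, which encode neuropeptide-like proteins, were examined on 2 arrays of whole fourth-stage larvae. The members were all genes whose symbol is nlp followed by a number and that are named alone by at least 1 probe set, a group of probes for 1 transcript. There were 58 such genes among 17118 genes on the array. They were read through 62 probe sets, and 2 further probe sets that name an nlp gene together with another gene were left out. The 10 members numbered from nlp-24 to nlp-34, which are known mainly as peptides of the epidermis, were set apart from the other 48. No probe set used here names nlp-34 alone, and that gene was not analysed here.

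One array came from wild-type N2 hermaphrodites raised with pOPC7, an oligomeric proanthocyanidin trimer gallate from grape seeds of Vitis vinifera, at 2 µg/mL. The other came from unexposed N2 hermaphrodites (control). Both cultures grew for 48 hours from the first larval stage (L1) to the fourth (L4) with Escherichia coli OP50 as food, and carried no transgene or mutation that the labels name. With only 1 array in each group the spread between cultures is unknown, so the differences below carry no p-value and describe this pair of arrays. Precision is limited by that number of arrays.

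Neuropeptides are short signalling peptides that neurons and some other secretory cells, including gut cells, release from dense-core vesicles. They are cut from longer precursors by proprotein convertases and carboxypeptidases and mostly act on G-protein-coupled receptors. In the nematode they fall into FMRFamide-like (flp), insulin-like (ins) and neuropeptide-like (nlp) genes, the last being a mixed class. Several nlp genes are expressed in the epidermis, where nlp-29 is known for its induction by fungal infection and wounding through the p38 MAP kinase PMK-1, and NLP-31 for antifungal activity.

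The deposited values are log2 values after RMA, a normalisation for arrays, and differences are given as pOPC7 minus control on that scale. Where several probe sets name a gene, their mean was taken. A gene was called measured if its 2 arrays averaged 6 or more, which held for 36 of the 58 nlp genes and for 8059 genes in all. The brightness of a probe set depends on its probes as well as on its transcript, so values are compared between arrays and not between genes. As a measure of error, pairs of probe sets of the same gene were compared over 1721 genes, which gave a probe-set SD of 0.22 for the difference read from 1 probe set. It is pooled over all values of 6 or more and describes disagreement between probe sets, not between cultures. For comparison, the SD of the difference over all measured genes was 0.20, and it was 0.14 over those above a value of 10. Hybridisation controls differed by 0.01 ± 0.10 (mean ± SD over 18 probe sets).

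Most measured nlp genes differed by less than 1.2-fold between the arrays, in both directions. Only nlp-89 passed 1.5-fold (a difference of at least 0.58), and it was higher with pOPC7. This was 1 of 36 measured members, beside 0.943% of all measured genes past 1.5-fold in either direction and 0.732% past it in the higher direction. No measured nlp gene was lower by 1.5-fold, against 0.211% of all measured genes. The surplus of higher genes over the whole array (59 higher, 17 lower) was smaller once the median difference was set to 0 (41 higher, 30 lower), where nlp-89 still passed (0.59). It was gone once a trend with level was removed (33 higher, 34 lower), and there nlp-89 did not pass (0.56) and no measured nlp gene did. At 1.2-fold, a threshold added after the data were seen, 6 members were higher (nlp-89, nlp-55, nlp-12, nlp-7, nlp-81 and nlp-40) and 3 were lower (nlp-36, nlp-80 and nlp-30). Together these were 9 of 36, beside 17.7% of all measured genes. In the higher direction 11.6% of all measured genes passed 1.2-fold, and in the lower direction 6.06%. The median difference of the 36 measured members was 0.04, beside 0.04 for all measured genes. Without suffixed probe sets, which left 22 members, it was 0.085, beside 0.037 for all genes kept. The difference was above 0 in 20 of 36 members (55.6%), against 57.8% of all measured genes. The members spread somewhat more widely, with an SD of 0.25 against 0.20 over all measured genes.

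**Figure D1:**
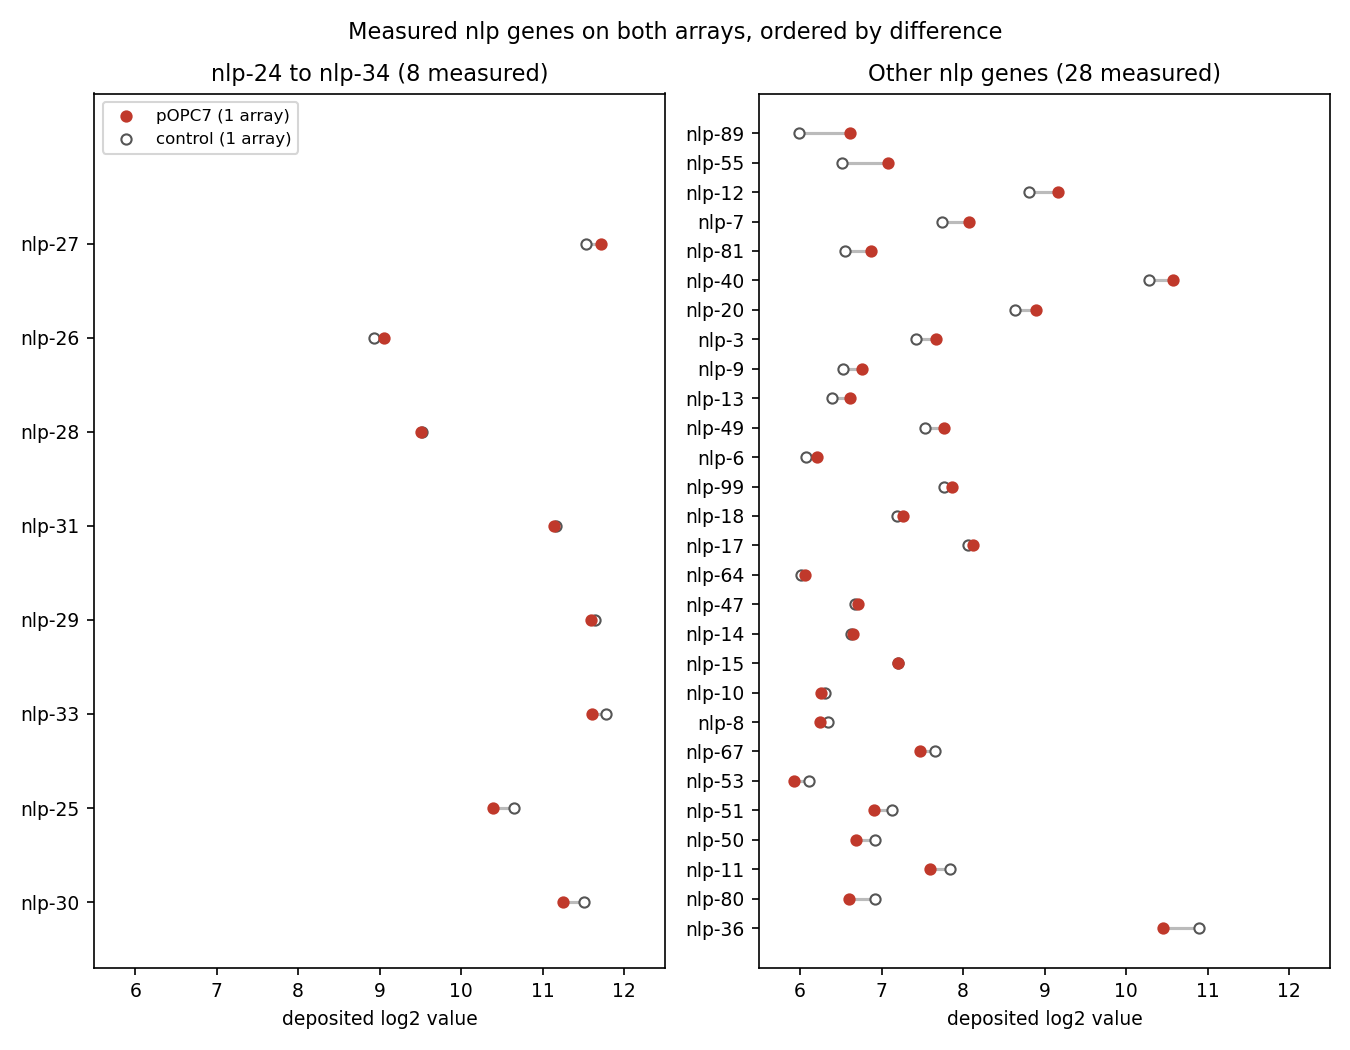
Deposited log2 values (horizontal axis) of the 36 measured nlp genes, with pOPC7 as filled and control as open circles, 1 array each, ordered within each panel from the most positive difference at the top. The circles of nlp-28, nlp-31 and nlp-29 nearly coincide, those of nlp-89 and nlp-55 stand farthest apart to the right, and those of nlp-36 farthest apart to the left.

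The epidermal group nlp-24 to nlp-34 had differences on both sides of 0. Of its 10 members on the array 8 were measured, 2 of them above 0 and 6 below, and none reached 1.5-fold. The median difference was -0.04 and the range ran from -0.26 to 0.19. Over all 1457 measured genes in the same range of array values (8.99 to 11.69) the median was 0.00, the SD was 0.16 and 51.2% were above 0. The SD of the 8 members was 0.17. Of the 1457 genes only 3 were higher and 1 was lower by 1.5-fold, so the lack of such a member says little about the group.

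The best known member, nlp-29, had a value of 11.60 with pOPC7 and 11.64 in the control, a difference of -0.04. Among measured genes 81.4% had an absolute difference at least as large as that of nlp-29. That share covers all array values, and differences were narrower above a value of 10 (SD 0.14, against 0.20 over all measured genes). nlp-31, whose peptide is known to be antifungal, had 11.14 with pOPC7 and 11.17 in the control (-0.03). For nlp-28 the values were 9.51 with pOPC7 and 9.52 in the control (-0.02). These 3 genes gave practically the same signal in exposed and unexposed larvae.

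The members of the group that stood farther apart went both ways. nlp-30 had 11.24 with pOPC7 and 11.51 in the control (-0.26, a ratio of 0.832), and it was the only measured member of the group past 1.2-fold, 1 of 8 beside 9.13% of the 1457 genes in the same range of array values. nlp-25 had 10.39 with pOPC7 and 10.65 in the control (-0.26, a ratio of 0.838). nlp-33 had 11.61 with pOPC7 and 11.77 in the control (-0.16). On the other side nlp-27 had 11.72 with pOPC7 and 11.53 in the control (0.19), and nlp-26 had 9.05 with pOPC7 and 8.92 in the control (0.12). The difference of nlp-27 was close to the probe-set SD of 0.22 and those of nlp-25 and nlp-30 slightly exceeded it. The probe sets of nlp-27 to nlp-31 all carry the suffix _x_at, which marks possible binding of related transcripts, and that of nlp-33 carries _s_at, which marks several transcripts. Of the measured members of the group, only nlp-25 and nlp-26 rest on probe sets without a suffix. The signals of nlp-27 to nlp-31 are therefore uncertain as values of single genes.

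The members nlp-24 and nlp-32 lay below the measured level. nlp-24, which encodes a peptide known to act on the opioid-like receptor NPR-17 in starved worms, had 3.20 with pOPC7 and 3.25 in the control. nlp-32 had 2.78 with pOPC7 and 2.86 in the control. Both values are near the dim end of the table, whose lowest value is 1.78, so a difference in either gene could not be read from these arrays.

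Gene order in the WBcel235 assembly was set beside these values. The genes nlp-31, nlp-30, nlp-29, nlp-28 and nlp-27 are direct neighbours among protein-coding genes in that order. Their differences were -0.03, -0.26, -0.04, -0.02 and 0.19, so the lowest and the highest of the group lie within the same run of neighbours. nlp-25 and nlp-26, with 1 protein-coding gene between them, differed in sign (-0.26 and 0.12).

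Genes listed as regulators of epidermal peptide genes had mostly positive differences. The list held activating kinases, receptors and adaptors together with genes whose loss raises nlp-29, such as dapk-1, osm-8 and dpy-9. It also held genes of TGF-beta signalling such as daf-4, a pathway named below for cnc-2 and not for the nlp genes. Of 28 on the array 18 were measured, with a median difference of 0.14, beside 0.04 for all measured genes. Of the 18, 14 were above 0 (77.8%), beside 57.8% of all measured genes. Among all measured genes with values from 6 to 8, where most of the list lay, 61.4% were above 0 and the median was 0.06. None reached 1.5-fold. tir-1, which encodes the SARM adaptor upstream of the p38 pathway, had 7.18 with pOPC7 and 6.75 in the control (0.43). plc-3, a phospholipase C gene, had 6.50 with pOPC7 and 6.07 in the control (0.43). daf-4, the type II receptor of TGF-beta signalling, had 6.22 with pOPC7 and 5.85 in the control (0.37). The lowest of the list was tpa-1, a protein kinase C gene (-0.35), chosen for mention after its value was seen. The difference between this list and the peptide genes was not tested.

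The cnc genes, a related class of epidermal antimicrobial peptides, were more scattered than nlp-24 to nlp-34. The 5 measured of 8 on the array had a median of -0.10 and an SD of 0.51. cnc-2, which is regulated in the epidermis by TGF-beta signalling, had 6.62 with pOPC7 and 6.06 in the control (0.56). cnc-3 had 9.04 with pOPC7 and 8.61 in the control (0.43), and cnc-7 had 6.31 with pOPC7 and 7.02 in the control (-0.71). cnc-7 was the only 1 of the 5 past 1.5-fold, beside 0.943% of all measured genes in either direction and 0.211% in the lower direction.

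Markers of epidermis and of the moult were read for the same larvae. All 10 epidermal markers on the array were measured, with a mean value of 9.25 with pOPC7 and 9.23 in the control and a median difference of 0.08, 6 being above 0. The collagen gene rol-6 (0.45) and the epidermal transcription factor genes lin-26 (-0.32) and elt-1 (-0.25) differed most. Of 10 moult genes 8 were measured, with a mean of 7.21 with pOPC7 and 7.14 in the control and 6 above 0. The share above 0 was 57.8% for all measured genes. nhr-23, a nuclear receptor gene that drives the moult (0.50), mlt-10 (-0.29) and qua-1 (0.26) differed most. The part of cell composition and larval timing in the peptide values was not tested, and in whole larvae fewer cells of a type and less RNA per cell cannot be told apart.

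**Figure D2:**
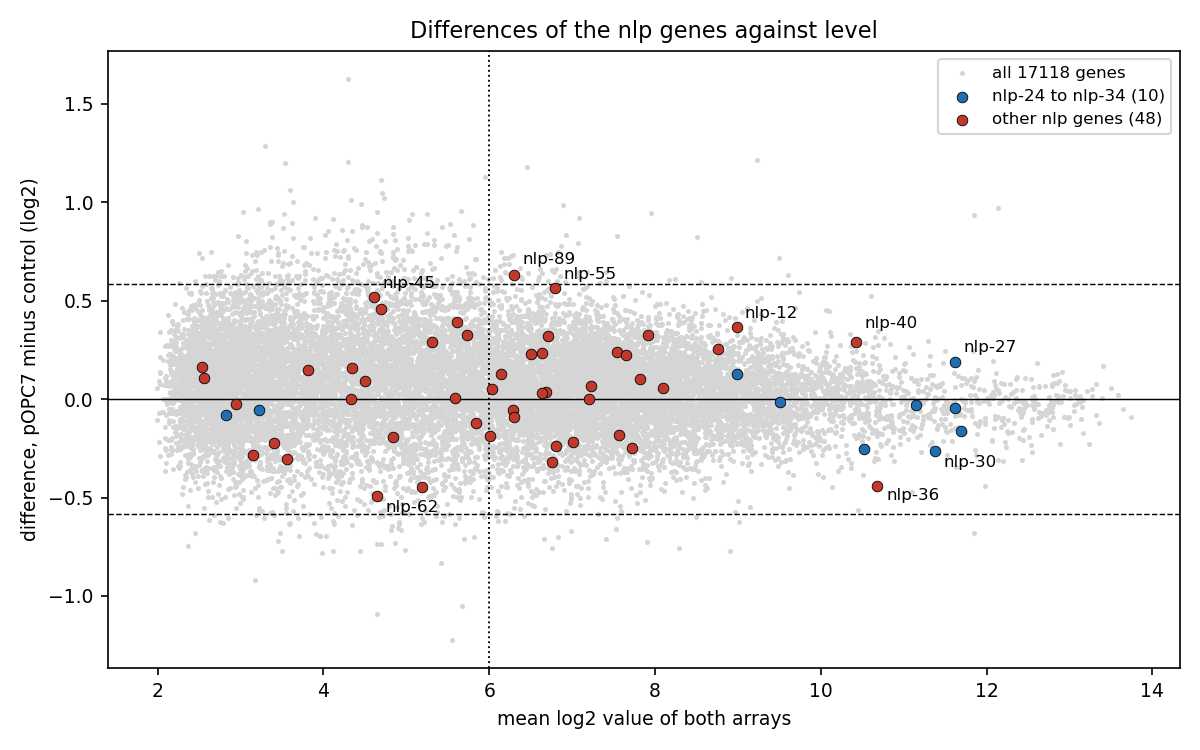
Difference between pOPC7 and control (vertical axis, log2) against the mean log2 value of both arrays (horizontal axis) for the 10 genes nlp-24 to nlp-34, the 48 other nlp genes and all 17118 genes. Dashed lines mark 1.5-fold and the dotted line the measured limit of 6. Of the nlp genes only nlp-89 lies outside the dashed lines, and nlp-36 and nlp-40 lie at the edges of the narrower cloud of bright genes.

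The other nlp genes had a median slightly above that of the whole array. Of 48 on the array 28 were measured, with a median difference of 0.06, a mean of 0.08 and an SD of 0.26, and 18 of them (64.3%) were above 0. All 7584 measured genes over the same range of array values had a median of 0.04, an SD of 0.20 and 59.1% above 0. At 1.2-fold 6 of the 28 were higher and 2 were lower, beside 12.2% higher and 6.22% lower among those 7584 genes.

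nlp-89 had 6.61 with pOPC7 and 5.98 in the control, a difference of 0.63 or 1.55-fold. It ranked 40 from the top of the measured genes, and 0.620% of them had an absolute difference at least as large. nlp-55 followed with 7.08 with pOPC7 and 6.51 in the control (0.56, 1.48-fold), and nlp-81 had 6.87 with pOPC7 and 6.55 in the control (0.32). No role is given here for these 3 genes, and each rests on 1 probe set in the dim part of the measured range.

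nlp-12, nlp-7 and nlp-3 were also among the 10 highest. nlp-12, a cholecystokinin-like peptide gene of the stretch-sensitive neuron DVA that tunes locomotion through the receptor CKR-2, had 9.17 with pOPC7 and 8.80 in the control (0.36, 1.29-fold). nlp-7, whose peptides modulate egg laying and avoidance behaviour, had 8.07 with pOPC7 and 7.75 in the control (0.33, 1.26-fold). nlp-3, a peptide gene of the egg-laying neurons HSN that promotes egg laying, had 7.67 with pOPC7 and 7.43 in the control (0.24). The difference of nlp-3 barely exceeded the probe-set SD of 0.22. The probe set of nlp-12 carries the suffix _s_at.

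nlp-40 encodes a peptide that the gut secretes to time the expulsion step of defecation through the receptor AEX-2. It had 10.57 with pOPC7 and 10.28 in the control (0.29, 1.22-fold), on a probe set with the suffix _s_at. Of all measured genes 13.7% had an absolute difference at least as large. Among the 769 measured genes over a value of 10 only 22 were higher by 1.2-fold and nlp-40 was 1 of them. The 6 measured gut markers of 7 had a mean of 8.98 with pOPC7 and 8.91 in the control. Their median difference was 0.02 and 4 were above 0, beside 57.8% of all measured genes. elt-7 (0.33), pho-1 (0.17) and vha-6 (-0.16) differed most.

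The remaining genes among the 10 highest were nlp-20, nlp-9 and nlp-13. nlp-20 had 8.89 with pOPC7 and 8.64 in the control (0.26), on a probe set with the suffix _s_at. nlp-9 had 6.76 with pOPC7 and 6.52 in the control (0.23), the mean of 2 probe sets whose differences were 0.20 and 0.27. nlp-13, the direct neighbour of nlp-9 in the genome, had 6.62 with pOPC7 and 6.39 in the control (0.23). Nothing in the annotation used here shows whether these neighbours share transcripts.

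The genes nlp-8, nlp-14, nlp-15 and nlp-17 had differences near 0. nlp-8, one of the peptides of the sleep-promoting neuron ALA, had 6.25 with pOPC7 and 6.34 in the control (-0.09). nlp-14, an orcokinin-like gene linked to sleep, had 6.65 with pOPC7 and 6.62 in the control (0.03). nlp-15, which is also orcokinin-like, had 7.20 on both arrays, a difference of 0.00. nlp-17, named for its array value, had 8.12 with pOPC7 and 8.07 in the control (0.06). The differences of these 4 genes were smaller than the probe-set SD. The probe sets of nlp-14 and nlp-15 carry the suffix _s_at.

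At the lower end stood nlp-36, with 10.45 with pOPC7 and 10.90 in the control, a difference of -0.44 or a ratio of 0.736. It ranked 90 from the bottom of the measured genes, 3.23% of which had an absolute difference at least as large. Of the 769 measured genes over a value of 10, 31 were lower by 1.2-fold, nlp-36 among them, and 1 was lower by 1.5-fold. Its probe set carries the suffix _x_at.

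The other low members were nearer to 0. nlp-80 had 6.60 with pOPC7 and 6.92 in the control (-0.32, a ratio of 0.802), the last of the 3 members lower by 1.2-fold beside nlp-36 and nlp-30. nlp-11 had 7.60 with pOPC7 and 7.85 in the control (-0.25), and nlp-50 had 6.68 with pOPC7 and 6.92 in the control (-0.24). For nlp-51 the values were 6.91 with pOPC7 and 7.12 in the control (-0.22). The probe sets of nlp-50 and nlp-51 carry the suffix _x_at. nlp-53 (-0.19) and nlp-67 (-0.18) completed the 8 lowest together with nlp-8. Apart from nlp-36 and nlp-80 these genes differed by 0.25 or less, close to the probe-set SD or below it.

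Other measured members had small differences, from -0.05 (nlp-10) to 0.23 (nlp-49). nlp-49 encodes a ligand of the arousal receptor SEB-3 and had 7.76 with pOPC7 and 7.54 in the control. nlp-47, a gonadotropin-releasing-hormone-like peptide gene, differed by 0.03, nlp-18 by 0.07 and nlp-64 by 0.05.

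nlp-6 and nlp-99 were the measured members other than nlp-9 with several probe sets. The 2 probe sets of nlp-6 differed by 0.26 and 0.00, the first with 8.88 with pOPC7 and 8.62 in the control and the second with 3.53 on both arrays, so the mean of 0.13 joins a bright and a dim probe set. Those of nlp-99 differed by 0.18 and 0.02. In both genes the brighter probe set had the larger difference.

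Below the measured level lay 22 members, 2 of the epidermal group and 20 others, with differences from -0.49 to 0.52 and a median of 0.00. None reached 1.5-fold, beside 3.69% of all 9059 genes below the measured level. By 1.2-fold 5 were higher and 4 lower, beside 22.9% higher and 8.21% lower among those genes. nlp-1, a peptide gene of the AWC olfactory neuron that acts on NPR-11, had 5.46 with pOPC7 and 5.17 in the control (0.29). nlp-21 had 5.58 on both arrays (0.01), on a probe set with the suffix _s_at. nlp-22, which promotes larval sleep at the moult from the neuron RIA, had 3.29 with pOPC7 and 3.51 in the control (-0.22). At the limit itself, nlp-53 (mean 6.01) and nlp-64 (6.04) were the dimmest members kept, and nlp-61 (5.84) and nlp-16 (5.73) the brightest left out, with differences of -0.12 and 0.33. The value of nlp-16 is the mean of 2 probe sets, of which 1 lay above the limit (mean 6.04, difference 0.38) and the other below it (mean 5.41, difference 0.27).

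The gene nlp-22 lies in a run of 4 neighbouring nlp genes, all below the measured level and named after their values were seen. nlp-22, nlp-23 and nlp-2, which encode related peptides, differed by -0.22, -0.29 and -0.19. Their neighbour nlp-45, a peptide gene linked to foraging, stood at 0.52, with 4.87 with pOPC7 and 4.35 in the control. The other extremes below the measured level were nlp-57 (0.46) and nlp-5 (0.39) on the higher side and nlp-62 (-0.49) and nlp-101 (-0.45) on the lower side. No order is read from values this dim.

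The nlp genes were set beside the flp and ins genes, the other peptide classes of the worm. Of 25 flp genes 17 were measured, with a median difference of 0.19 and an SD of 0.15, beside a median of 0.04 for all measured genes. Of these flp genes 16 were above 0 (94.1%), beside 57.8% of all measured genes. Their array values ran from 6.65 to 9.05. Among all measured genes with values from 6 to 8, 61.4% were above 0 and the median was 0.06. From 8 to 10 these were 55.6% and 0.03. The flp genes were not read under the other processing settings. flp-7 (0.32), flp-5 (-0.30) and flp-10 (0.29) differed most. FLP-7 is a peptide known to act on fat loss in the gut. Of 24 ins genes with daf-28 only 6 were measured, with a median of 0.10, and ins-33 (-0.36), ins-7 (-0.31) and daf-28 (0.21) differed most. The 36 measured nlp genes had differences on both sides of 0, with an SD of 0.25. Their range was wider than that of the 17 flp genes, but a range grows with the number of members. The difference between the classes was not tested.

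**Figure D3:**
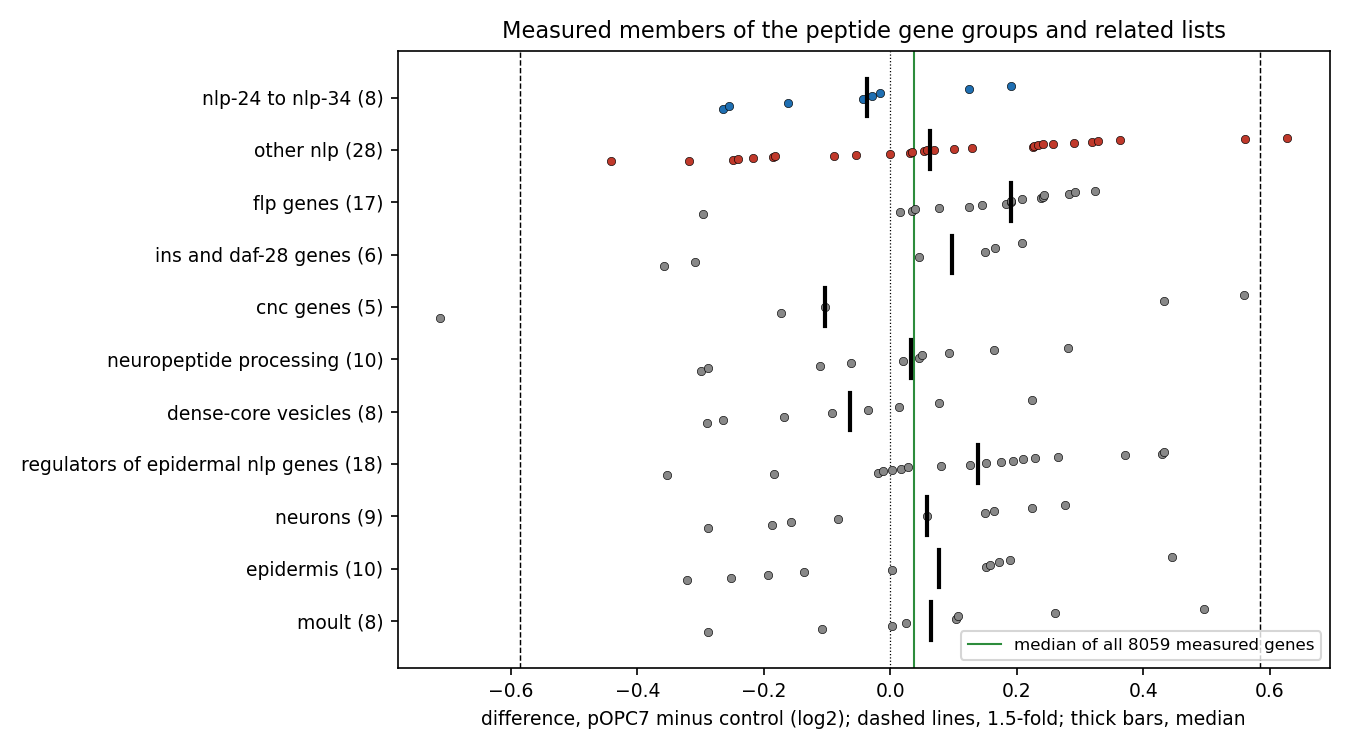
Differences between pOPC7 and control (horizontal axis, log2) of the measured members of nlp-24 to nlp-34, the other nlp genes and related lists, 1 point per gene, with the number measured in parentheses, thick bars at list medians and a line at the median of all 8059 measured genes. The flp genes lie to the right of 0 except flp-5, while both nlp groups straddle it.

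Genes that process and release neuropeptides had differences in both directions. None of them passed 1.5-fold, beside 0.943% of all measured genes. Of 15 processing genes 10 were measured, 6 above 0, with a median of 0.03. sbt-1, the chaperone of the convertase EGL-3, had 8.40 with pOPC7 and 8.12 in the control (0.28). egl-21, the carboxypeptidase that trims the cut peptides, had 7.45 with pOPC7 and 7.73 in the control (-0.29), and nep-1, a neprilysin-like peptidase gene, had 7.28 with pOPC7 and 7.58 in the control (-0.30). Among dense-core vesicle genes 8 of 16 were measured, 3 above 0, with a median of -0.06. For all measured genes the share above 0 was 57.8% and the median 0.04. ric-7 (-0.29), the Rab2 gene unc-108 (-0.26) and the priming factor gene unc-13 (0.22) differed most. Peptide receptors were mostly too dim to read, since only 2 of 37 were measured, npr-5 (0.40) and trhr-1 (-0.08).

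Neuronal markers had nearly the same mean on both arrays. Of 14 on the array 9 were measured, with a mean of 7.68 with pOPC7 and 7.66 in the control. The median difference was 0.06 and 5 were above 0, beside 57.8% of all measured genes. egl-21 (-0.29), unc-119 (0.28) and unc-13 (0.22) differed most. The part of neuronal cells in the nlp values was not tested. All 6 muscle markers were measured, with a median of -0.02, and mlc-1 (-0.31), hlh-1 (0.19) and myo-3 (0.14) differed most. The 3 adult-stage genes had a median of -0.08, with vit-2 (-0.26), col-19 (-0.08) and vit-5 (0.03). Their mean value was 11.62 with pOPC7 and 11.72 in the control. Both means lie far above the measured limit of 6, so these genes gave a clear signal in both cultures. Whether the cultures held young adults beside the larvae was not tested.

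The medians of both nlp groups stayed small under other processing. Of 9 other settings tried, 5 changed the members or values of nlp-24 to nlp-34 and the median stayed below 0 in each, while the other 4 left its input as it was. For the other nlp genes 8 of 9 settings changed the input, and the median stayed above 0 in each. The median of all genes kept was above 0 too, except after centring and with the running median removed. With no limit on level the other nlp genes had a median of 0.063, beside 0.059 for all genes. The median of all 36 members together changed sign when a trend with level was removed (-0.014).

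**Figure D4:**
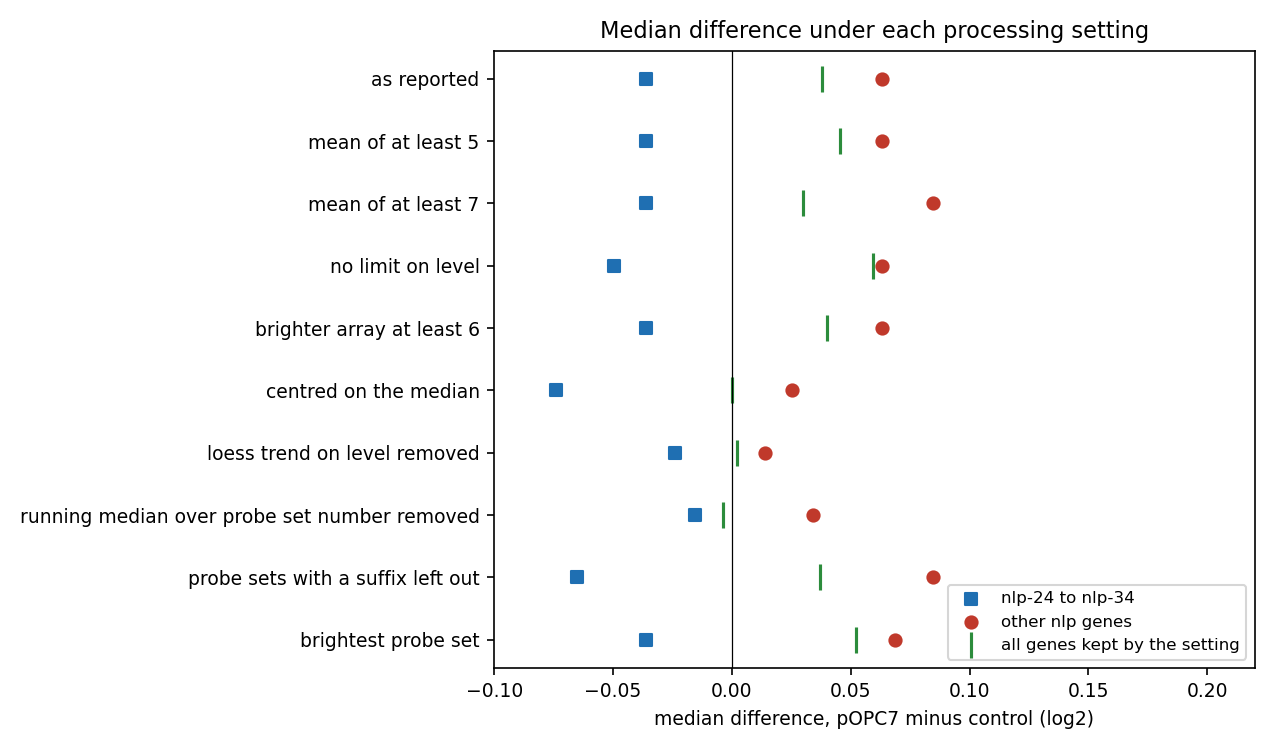
Median difference between pOPC7 and control (horizontal axis, log2) of nlp-24 to nlp-34 (squares), the other nlp genes (circles) and all genes kept (bars) under each processing setting. The squares run from -0.07 to -0.02, the circles from 0.01 to 0.08.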

How the data were processed

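The series holds 2 samples, whole L4 larvae raised with pOPC7 and unexposed larvae, with 1 array each and 22625 probe sets. The deposited log2 values were made with RMA, per the submitters' processing notes. Software, version and the number of hybridisations behind a column are not given here, and the log2 scale was read from the note and the range (1.78 to 13.90). Column medians were 5.99 (pOPC7) and 5.94 (control).

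Gene names came from the platform's annotation (20766 with 1 symbol, 887 with several, 972 unnamed here). Identifiers of all 58 nlp genes matched WBcel235 genes. A gene's value was the mean of its probe sets, and values were used as deposited. With 1 array per group there was no test, and calls are by size (1.5-fold). Members, lists and settings were chosen with earlier results of these data known. Named were the measured members of nlp-24 to nlp-34, the 10 highest, 8 lowest and 6 brightest of the others, 12 names fixed by hand, and the 3 largest differences per list. Members named beyond these were chosen after their values were seen. Of the listed symbols, 8 were not matched on the array. The code was tested on simulated data. Alternatives were 4 limits on dim genes, 3 scalings (centring, loess on level with a span of 0.3, running median over 1001 neighbouring probe sets by number), leaving out suffixed probe sets, the brightest probe set, the mean of a list and other thresholds. Python 3.11.15, pandas 2.3.3, numpy 2.4.6 and statsmodels 0.14.6 were used.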

Additional observations from a re-analysis of the deposited data

How the results depend on the processing

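Under the 9 other settings and the mean over members, the median of nlp-24 to nlp-34 ran from -0.07 to -0.02 and that of the other nlp genes from 0.01 to 0.08. For nlp-24 to nlp-34, 4 of these settings could not change the input (other limits of 5 and 7, the brighter array and the brightest probe set), and for the other nlp genes 1 could not (the brighter array). The count higher by 1.5-fold, 1 as reported, was 0 with a mean of at least 7, 0 after removal of the loess trend and 0 at 2-fold, and it was 6 at 1.2-fold, where the count lower was 3 in place of 0. The count above 0, 20 of 36 as reported, was 11 of 22 with a mean of at least 7 and 31 of 58 with no limit on level, since fewer or more genes were kept. The median of all measured nlp genes was -0.014 with the loess trend removed, and 0.085 without suffixed probe sets, and the cause was not tested. Over all measured genes the counts past 1.5-fold were 59 higher and 17 lower as reported, 41 and 30 after centring, and 33 and 34 with the loess trend removed. With no limit on level they were 333 and 77, with a mean of at least 5 they were 120 and 31, and with a mean of at least 7 they were 20 and 9. Of 145 values of 32 named nlp genes under other settings, 0 moved by more than the error between probe sets. Much of this was fixed in advance. All named genes but nlp-9 rest on 1 probe set, so leaving out suffixed probe sets or taking the brightest could not change their values. Centring moved every gene by the same 0.04, well below the probe-set SD of 0.22. In all, 3 genes changed sign (nlp-14, nlp-21 and nlp-28, with reported differences of at most 0.03). Without suffixed probe sets 2 genes of nlp-24 to nlp-34 were left. No paired analysis was possible because each group has 1 sample, and no replicate could be left out.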

Other observations

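The genes nlp-15 and nlp-91 had exactly the same deposited value on both arrays. Such identity was found in 445 of 22625 probe sets (1.97%) and in 47 of 8059 measured genes (0.583%).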
